A study of Mus musculus with 6 samples.

Results

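The FGF ligands and receptors followed here are 9 genes: the ligands Fgf1, Fgf2, Fgf7, Fgf10 and Fgf18 and the receptors Fgfr1, Fgfr2, Fgfr3 and Fgfr4. They were taken by gene symbol from the 31053 genes of the count table, and all 9 were present. Single-cell RNA sequencing covered live, CD45-depleted stromal vascular cells of inguinal white adipose tissue (iWAT), in 6 libraries. Each library stood alone for 1 combination of age and temperature. The mice were C57BL/6 males, 9 weeks (young) or 57 weeks (aged) old, and every group first spent 3 weeks at 30 °C. TN mice then stayed at 30 °C (thermoneutrality), 3D mice had 3 days of cold at 6 °C, and 14D mice had 14 days at 6 °C. No transgene or drug was named for any of these groups. The number of mice per library and the supplier of each library's mice are not given in the sources used here. The study's methods for isolating stromal vascular cells say that mice were not pooled unless indicated, and the single-cell section names no pooling of mice. Each p-value for age or temperature measures the spread of libraries around additive effects of age and temperature. Any interaction of age and temperature is part of that spread.

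Fibroblast growth factors are secreted proteins that bind receptor tyrosine kinases at the cell surface, with heparan sulfate as a cofactor. The bound receptors pair, phosphorylate the adaptor FRS2 and signal through RAS and the ERK kinases, and the Sprouty proteins and the phosphatase DUSP6 act back on that signal. Fgf7 and Fgf10 are close relatives that signal mainly through the IIIb splice form of Fgfr2, which is typical of epithelia. Fgf1 and Fgf2 lack a classical signal peptide, and both are known as factors for preadipocytes and blood vessels. The counts are read from the 3′ ends of transcripts, so IIIb and IIIc receptor forms are not told apart.

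The 6 libraries held 52068837 to 88508349 UMIs, where a UMI counts 1 captured transcript molecule. Of 68103 barcodes, 61937 cells were kept. The aged 14D library stood apart, with a median of 2635 UMIs per kept cell against 6548 to 9642 in the other libraries and 44.5% of its cells in clusters without a name against 6.33 to 6.94%. The calls for age and temperature are given without it further on. Of 67565 barcode sequences, 524 occurred in more than 1 library. The cells were clustered without the 9 members, the marker genes or the pathway genes. They gave 21052 cells named Dpp4+ fibroblasts, 18766 Icam1+ preadipocytes, 4475 Cd142+ fibroblasts, 4220 endothelial cells and 3834 smooth muscle cells and pericytes (SMC/pericytes). Their clusters showed 7 to 10 of the 10 marker genes of the class named. Smaller classes were 473 immune cells left after CD45 depletion, 164 Schwann cells and 416 cells of 1 cluster with Lyve1, Mmrn1 and Spp1 among its leading genes. Those 416 cells, as a sum, showed 5 of 6 lymphatic endothelial markers but were mixed. At a clustering resolution of 0.3, 295 of its cells lay in a cluster of 297 cells and 116 joined endothelial cells. The cluster of 297 cells was led by Spp1, Sfrp5 and Thbs4 and was separate from the main Cd142+ cluster. It took the name Cd142+ fibroblasts from 6 of 10 markers, none of them among its leading genes. The 295 cells had 542 CPM of the fibroblast gene Pdgfra and 4.33 CPM of Lyve1, and the 116 cells had 42.1 and 1580 CPM. The 416 cells are called the Lyve1/Spp1 cluster here, and their levels belong to no single cell type. Levels are given as CPM, the UMIs of a gene per 1e6 UMIs of a class and library. In the 5 classes that were tested, that total was the UMIs of the tested genes scaled by edgeR's TMM factors. For single clusters and the smaller classes it was all UMIs. In sums over cells of a class, fewer cells that express a gene and less RNA per cell cannot be told apart. A 3′ count does not scale with transcript length in a known way, so levels were compared within a gene and not between genes.

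The ligands differed in their leading class. Fgf1 was at its highest in SMC/pericytes, Fgf2 and Fgf18 in Dpp4+ fibroblasts, Fgf7 in Cd142+ fibroblasts and Fgf10 in Icam1+ preadipocytes. Among the receptors, Fgfr1 was counted in every class, Fgfr3 was at its highest in endothelial cells, and Fgfr4 was close to undetected. These orders are descriptions, since cells were put into classes by their expression.

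**Figure D1:**
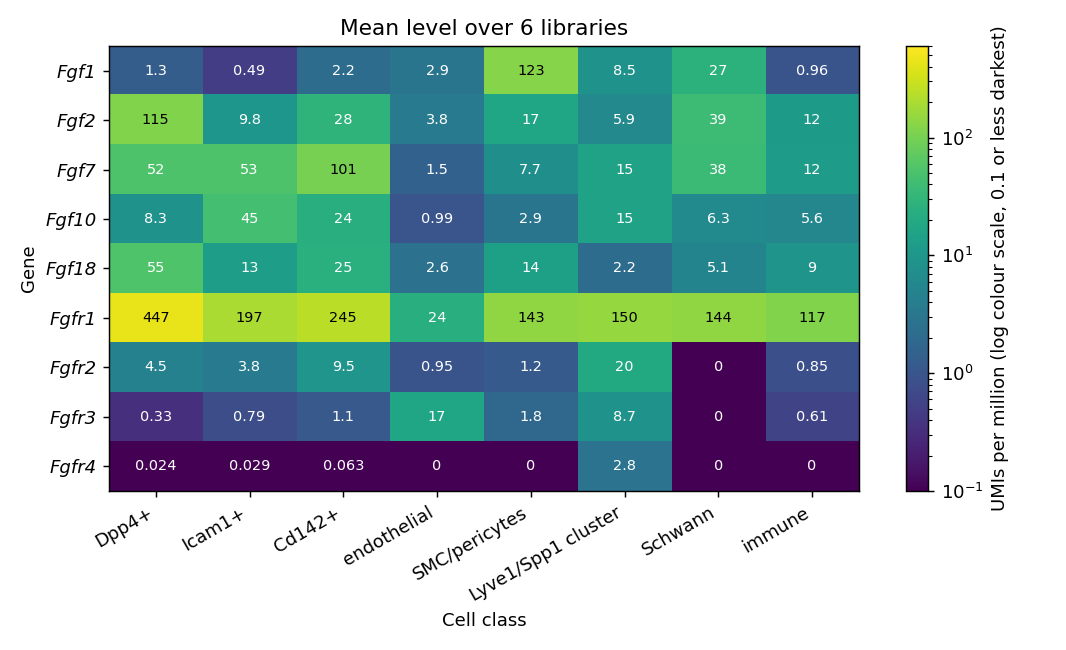
Mean level of each gene (rows) in each cell class (columns) over the 6 libraries, in CPM on a log colour scale. Fgf1 reached 123 in SMC/pericytes and at most 2.91 in the other 4 tested classes, while Fgfr1 ran from 24.3 in endothelial cells to 447 in Dpp4+ fibroblasts. The Lyve1/Spp1 column is the mixed cluster of 416 cells.

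Fgf1 (ENSMUSG00000036585), an acidic growth factor that binds all FGF receptors, lies on chromosome 18 at 38838673 to 38929472, minus strand (mm10, GENCODE). Its level in SMC/pericytes was 135, 134 and 115 CPM in young TN, 3D and 14D libraries and 122, 132 and 103 CPM in the aged ones. Of the other tested classes, endothelial cells had the most, at 2.91 ± 0.84 CPM (SD, n = 6), a range far below that of SMC/pericytes. The 164 Schwann cells had 8.34 to 78.4 CPM, the highest from 12 UMIs in the aged TN library. Of the 3942 Fgf1 UMIs in kept cells, 78.1% came from SMC/pericytes. Within that class the level split by cluster. On the plain scale of clusters, the one led by the contractile genes Acta2, Myh11 and Tagln had 154 ± 15.4 CPM, and the cluster led by the pericyte genes Rgs5 and Kcnj8 had 11.4 ± 6.43 CPM (SD, n = 6 each). At an equal depth of 2000 UMIs per cell, 750 of 3755 SMC/pericytes had an Fgf1 UMI (exact binomial 95% interval 18.7 to 21.3%), against 0.0858% of Icam1+ preadipocytes (0.0491 to 0.139%). Without thinning these shares were 45.9% and 0.373%, at median depths of 6010 and 8212 UMIs. Such intervals cover counting error only. Aged and young SMC/pericytes overlapped, with a log2 fold change of -0.10 ± 0.08 (SE; edgeR adjusted p = 0.58).

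How much Fgf1 was seen depended on the limit for mitochondrial UMIs. Of 3834 SMC/pericytes, 2711 (70.7%) lay above 3 median absolute deviations (MAD) of their library, a limit at 5.32 to 7.11% mitochondrial UMIs, against 0.404% of Dpp4+ fibroblasts. The cells used here were kept up to 20%, which retained 96.5% of the 4086 Fgf1 UMIs in the libraries. Cells within the 3 MAD limit held 22.7% of them, and with that limit the SMC/pericyte level was 44.9 ± 9.38 CPM (SD, n = 6) in place of 123 ± 12.7 CPM. The make-up of the class differed too. The Acta2/Myh11 cluster held 2766 cells and the Rgs5/Kcnj8 cluster 1068 at the 20% limit, against 501 and 879 when clustered under the 3 MAD limit. The part of this in the lower level was not tested. Among the tested classes, SMC/pericytes were the highest for Fgf1 under both limits. Levels in Schwann cells were not taken under the 3 MAD limit.

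**Figure D2:**
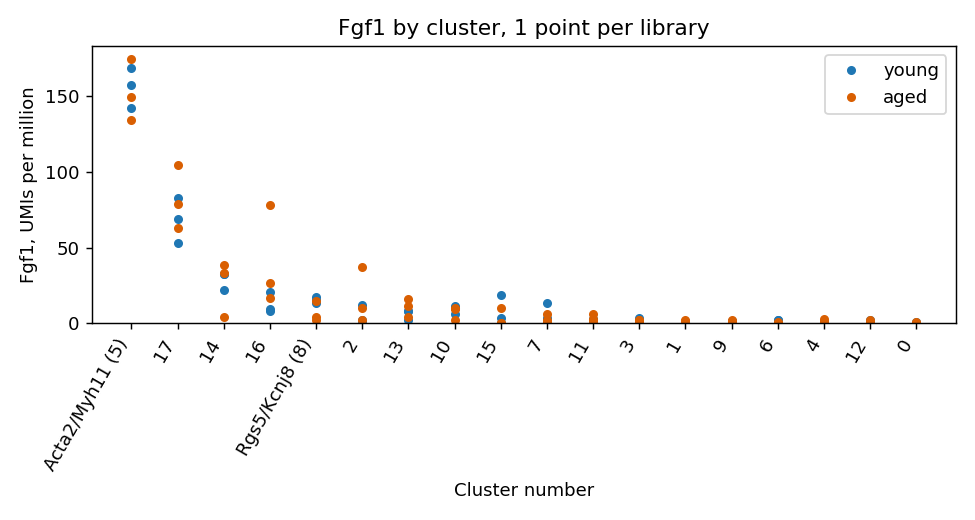
Fgf1 level in CPM (vertical axis) in each of 18 clusters (horizontal axis, by mean), with 1 point per library and colour for age. The Acta2/Myh11 cluster lay between 134 and 174 in all 6 libraries, and the Rgs5/Kcnj8 cluster between 2.39 and 17.7. Cluster 17 consists of cells with high doublet scores.

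Fgf2 (ENSMUSG00000037225; chromosome 3, 37348346 to 37410108, plus strand) is the basic growth factor long used to expand fibroblasts and preadipocytes in culture. In Dpp4+ fibroblasts it stood at 81.3, 122 and 112 CPM in the young TN, 3D and 14D libraries and at 104, 138 and 134 CPM in the aged ones. That class held 78.5% of the Fgf2 UMIs of kept cells. Cd142+ fibroblasts followed at 28.3 ± 3.92 CPM, then SMC/pericytes at 16.7 ± 7.75 and Icam1+ preadipocytes at 9.82 ± 2.01 CPM (SD, n = 6 each). The ranges of Cd142+ fibroblasts and SMC/pericytes overlapped, as did those of SMC/pericytes and Icam1+ preadipocytes. With cells thinned to 2000 UMIs, 20.3% of Dpp4+ fibroblasts had an Fgf2 UMI (19.7 to 20.8%) against 0.672% of endothelial cells (0.439 to 0.983%). Unthinned, the shares were 53.0% and 1.18%. The gene overlaps Nudt6 and Fgf2os on the opposite strand, both of which are in the count table.

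Fgf7 (ENSMUSG00000027208; chromosome 2, 126034658 to 126091185, plus strand), the keratinocyte growth factor made by stromal cells, was counted in all 3 fibroblast classes. Its level in Cd142+ fibroblasts was 101 ± 12.6 CPM, in Icam1+ preadipocytes 52.8 ± 9.21 CPM and in Dpp4+ fibroblasts 52.1 ± 9.82 CPM (SD, n = 6 each). The first was above the others in all 6 libraries, and Icam1+ and Dpp4+ cells could not be ordered, each being higher in 3 of 6 libraries. Within Dpp4+ fibroblasts, the largest cluster led by Smpd3, Dpp4 and Pi16 had 56.0 ± 10.1 CPM and the cluster led by Dmkn and Krtdap 22.4 ± 2.82 CPM. Endothelial cells had 1.47 ± 1.25 CPM.

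Fgf10 (ENSMUSG00000021732; chromosome 13, 118669791 to 118792115, plus strand), a mesenchymal factor known in adipose tissue as a product of preadipocytes that acts in adipogenesis, had 69.0% of its UMIs in Icam1+ preadipocytes. The levels there were 62.7, 46.0 and 79.0 CPM in young TN, 3D and 14D libraries and 28.6, 28.9 and 25.3 CPM in aged ones. The 2 ages did not overlap. Cd142+ fibroblasts had 24.1 ± 5.27 CPM and Dpp4+ fibroblasts 8.33 ± 2.52 CPM (SD, n = 6 each), each lower than Icam1+ preadipocytes in all 6 libraries. After thinning, 8.04% of Icam1+ preadipocytes had an Fgf10 UMI (7.65 to 8.44%), against 335 of 20884 Dpp4+ fibroblasts (1.44 to 1.78%) and 0.233% of endothelial cells (0.106 to 0.441%). Unthinned, these shares were 26.2%, 5.80% and 0.355%.

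Fgf18 (ENSMUSG00000057967; chromosome 11, 33117430 to 33147400, minus strand), known for its roles in bone, cartilage and lung growth, was led by Dpp4+ fibroblasts. They held 68.2% of its UMIs, at 55.0 ± 20.3 CPM. Cd142+ fibroblasts had 25.4 ± 9.28 CPM, SMC/pericytes 13.9 ± 2.40 CPM and Icam1+ preadipocytes 13.1 ± 7.49 CPM (SD, n = 6 each). SMC/pericytes and Icam1+ preadipocytes could not be ordered, the former being higher in 4 of 6 libraries. Thinned cells with an Fgf18 UMI made up 10.1% of Dpp4+ fibroblasts (9.71 to 10.5%) and 0.388% of endothelial cells (0.217 to 0.639%), from 31.6% and 0.829% unthinned.

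Fgfr1 (ENSMUSG00000031565; chromosome 8, 25513654 to 25575718, plus strand), the receptor typical of mesenchymal cells, was at 447 ± 62.9 CPM in Dpp4+ fibroblasts and 245 ± 48.5 CPM in Cd142+ fibroblasts. Icam1+ preadipocytes had 197 ± 23.9 CPM, SMC/pericytes 143 ± 15.6 CPM and endothelial cells 24.3 ± 4.99 CPM (SD, n = 6 each). Each of these classes was higher than the next in all 6 libraries. The Lyve1/Spp1 cluster had 150 ± 39.0 CPM over the 6 libraries, and over all its cells the 295 with Pdgfra had 198 CPM and the 116 with Lyve1 52.6 CPM. Thinned cells with an Fgfr1 UMI made up 56.0% of Dpp4+ fibroblasts (55.3 to 56.7%), 28.2% of the Lyve1/Spp1 cluster (23.8 to 32.9%) and 4.26% of endothelial cells (3.65 to 4.95%), from 91.4%, 46.6% and 7.46% unthinned.

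Fgfr2 (ENSMUSG00000030849; chromosome 7, 130162451 to 133123350, minus strand), the receptor for Fgf7 and Fgf10 in epithelia, gave 1905 UMIs in kept cells. Cd142+ fibroblasts had 9.48 ± 4.55 CPM, Dpp4+ fibroblasts 4.52 ± 0.98 CPM and Icam1+ preadipocytes 3.78 ± 1.84 CPM (SD, n = 6 each). Cd142+ fibroblasts were higher than Dpp4+ fibroblasts in all 6 libraries, although the ranges overlapped. The Lyve1/Spp1 cluster had 5.69 to 38.6 CPM, from 49 UMIs in all. The annotated gene spans 69 other genes or transcripts, so reads in this interval may belong to another gene. Thinned cells with an Fgfr2 UMI made up 1.51% of Cd142+ fibroblasts (1.17 to 1.92%) against 0.181% of endothelial cells (0.0728 to 0.372%), from 5.56% and 0.379% unthinned.

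Fgfr3 (ENSMUSG00000054252; chromosome 5, 33721674 to 33737068, plus strand), best known as a brake on the growth of bone, had 721 UMIs in kept cells. In endothelial cells it stood at 11.2, 22.9 and 13.8 CPM in young TN, 3D and 14D libraries and at 21.4, 20.3 and 12.05 CPM in the aged ones. The Lyve1/Spp1 cluster had 8.72 ± 3.74 CPM from 22 UMIs. SMC/pericytes, next among the tested classes, had 1.84 ± 0.84 CPM (SD, n = 6 each), below endothelial cells in all 6 libraries. Within endothelial cells the cluster led by Cldn5, Gpihbp1 and Aqp7 had 14.3 ± 4.58 CPM, and the cluster led by Lrg1, Plvap and Selp had 26.6 ± 8.88 CPM. Thinned cells with a UMI were 120 of 3869 endothelial cells (2.58 to 3.70%) and 0.0718% of Dpp4+ fibroblasts (0.0402 to 0.118%), with shares of 6.00% and 0.247% unthinned.

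Fgfr4 (ENSMUSG00000005320; chromosome 13, 55152640 to 55168759, plus strand), the receptor of liver that pairs with beta-Klotho, had 21 UMIs among all barcodes of the 6 libraries. In kept cells there were 19, of which 7 were in 4 of 416 cells of the Lyve1/Spp1 cluster, from 3 of the 6 libraries. Of these 7, 3 were in the 295 cells and 4 in the 116 cells described above. No Fgfr4 UMI was found in 4220 endothelial cells or in 3834 SMC/pericytes. After thinning, 0 of 3869 endothelial cells and 0 of 3755 SMC/pericytes allow shares of up to 0.0775% and 0.0799%, taken as 3 counts of the total. This limits the cells with a UMI at that depth, not the cells that express the gene. Fgfr4 passed the filter on low counts in no class and was not tested.

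Across the 30 sums of 5 classes and 6 libraries, the genes whose log2 levels followed a member most closely were picked from 7634 genes by Pearson correlation, as a description, since the sums share classes and libraries. For Fgf1 they were Rgs7bp (r = 0.989), Dgkb and Casq2. For Fgf2 they were the semaphorin Sema3c (0.989), Dbn1 and Dpp4, and for Fgf7 they were Gpx3 (0.986), Dapk1 and Egfr. Mmp19 (0.968), Ank2 and Podn were nearest to Fgf10, and Il1r2 (0.956), Col14a1 and Galnt16 to Fgf18. Fgfr1 was matched most closely by Anxa1 (0.992), Ddr2 and Vasn. The 3 other receptors did not reach the 20 CPM needed for this list.

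Age was tested next, as the study set out to compare young and aged iWAT in the response to cold. For each class, the 6 sums of UMIs were fitted by edgeR's quasi-likelihood test with age and temperature as terms, and p-values were adjusted over all genes of the class. Fgf18 fell with age in all 3 fibroblast classes, Fgf10 and Fgf7 fell in Dpp4+ and Icam1+ cells, and Fgfr2 fell in Icam1+ preadipocytes. Fgf2 rose in Dpp4+ fibroblasts and Fgfr1 in Cd142+ fibroblasts.

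Of the 9 members, 8 passed the filter on low counts in Dpp4+ fibroblasts, and 4 of them changed with age: 3 fell and 1 rose. Over all 13311 genes tested in that class the test called 18.6%, of which 9.41% of the genes tested were lower and 9.15% higher in aged cells. In Icam1+ preadipocytes 4 of 8 members changed and all 4 fell, beside 13.8% of genes called and 6.33% called lower. In Cd142+ fibroblasts 1 of 7 fell and 1 rose, beside 12.6% of genes called, 6.09% lower and 6.46% higher. The aged and young libraries did not overlap for 2 of 8 members in Dpp4+, 2 of 8 in Icam1+ and 2 of 7 in Cd142+ cells. Over all genes tested the shares were 24.4%, 23.3% and 24.0% in the same order of classes. Lack of overlap was thus about as common among members as among all genes, and further on it is given for single genes as a description. In endothelial cells and SMC/pericytes, 1.38% and 1.85% of genes were called, with 0 of 3 and 0 of 6 members by edgeR, and no member there had an unadjusted p under 0.05 in edgeR or DESeq2.

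**Figure D3:**
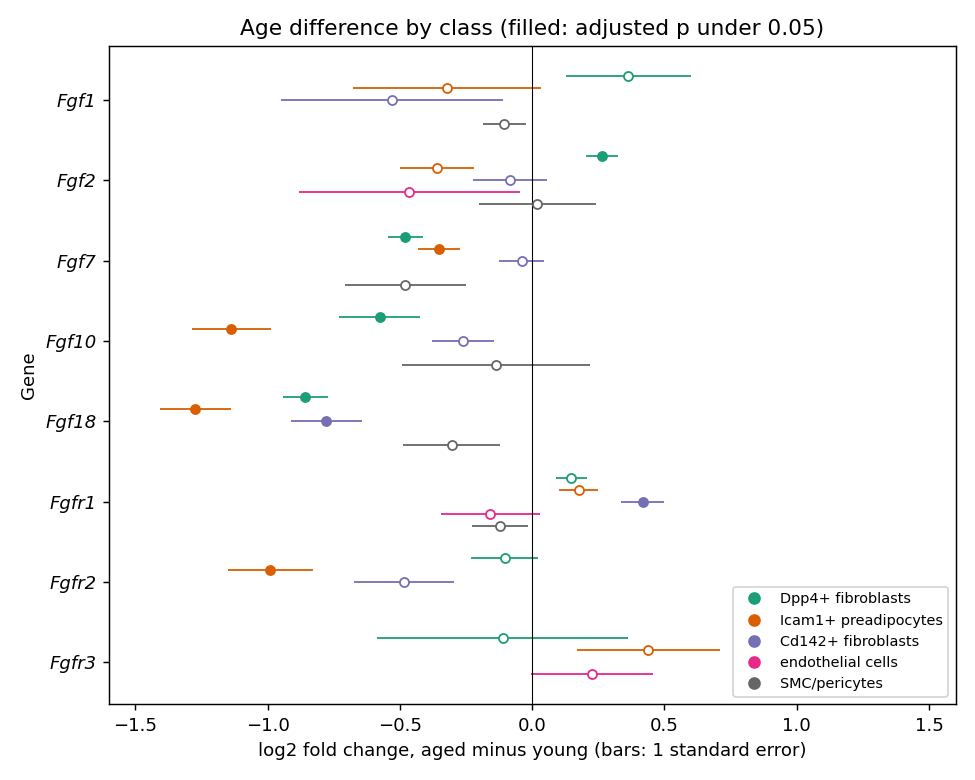
Log2 fold change with age (aged minus young) of 8 members, with bars of 1 standard error and colour for the cell class; filled points have an edgeR adjusted p under 0.05. Fgf18 lay between -1.27 and -0.78 in the 3 fibroblast classes, and no point for endothelial cells or SMC/pericytes is filled.

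Fgf18 levels in Dpp4+ fibroblasts were 67.8, 58.0 and 86.0 CPM in the young TN, 3D and 14D libraries and 46.0, 28.4 and 43.7 CPM in the aged ones. Every aged library was below every young one. The log2 fold change was -0.86 ± 0.09 (SE; edgeR adjusted p = 3.77e-05). In Icam1+ preadipocytes Fgf18 was 21.6, 11.1 and 23.4 CPM in young and 7.41, 6.16 and 8.89 CPM in aged libraries, again without overlap, for a log2 fold change of -1.27 ± 0.13 (edgeR adjusted p = 0.000692). In Cd142+ fibroblasts it was 37.0, 22.8 and 37.1 CPM in young and 18.4, 17.2 and 19.6 CPM in aged libraries, with a log2 fold change of -0.78 ± 0.13 (edgeR adjusted p = 0.000715). The fall was present at all 3 temperatures in each of these classes. It was also called in the Dmkn and Krtdap cluster of Dpp4+ cells taken alone (-0.62 ± 0.12, edgeR adjusted p = 0.00749). The share of thinned cells with an Fgf18 UMI was 12.3% of young and 6.98% of aged Dpp4+ fibroblasts, with intervals of 11.7 to 12.9% and 6.44 to 7.54%. These intervals cover the counting error of cells pooled over libraries and not the spread of libraries, so they are no test of age. The SMC/pericyte change was -0.30 ± 0.18 and did not pass (edgeR adjusted p = 0.469). The Cd142+ call was lost when equal numbers of cells were thinned to 2000 UMIs (-0.62, edgeR adjusted p = 0.14) and when cells were gated directly on markers (-0.49, edgeR adjusted p = 0.177), and the Icam1+ call was lost without the temperature term (edgeR adjusted p = 0.052).

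Fgf10 fell by 1.14 ± 0.15 on the log2 scale with age in Icam1+ preadipocytes (edgeR adjusted p = 0.00204), to 27.6 ± 2.01 CPM in aged from 62.6 ± 16.5 CPM in young libraries (SD, n = 3 each). All 3 aged libraries were below all 3 young ones. Thinned cells with an Fgf10 UMI made up 10.7% of young (10.1 to 11.4%) and 5.37% of aged Icam1+ preadipocytes (4.92 to 5.84%). Those intervals again leave out the spread of libraries and are no test of age. The edgeR call for Fgf10 in Icam1+ preadipocytes held in all 18 alternative analyses. In Dpp4+ fibroblasts Fgf10 was 11.7, 8.22 and 9.90 CPM in young and 8.74, 7.01 and 4.36 CPM in aged libraries, with the ages overlapping (-0.58 ± 0.15, edgeR adjusted p = 0.0218). That call was lost without the aged 14D library (-0.33, edgeR adjusted p = 0.106) or the young 14D library (-0.33, edgeR adjusted p = 0.1). It was also lost without the temperature term (edgeR adjusted p = 0.207) and with equal cells thinned to 2000 UMIs (edgeR adjusted p = 0.107). Cd142+ fibroblasts had 32.1, 22.4 and 24.4 CPM in young and 28.1, 18.7 and 19.0 CPM in aged libraries. The difference there was -0.26 ± 0.12 and did not pass (edgeR adjusted p = 0.167), although it passed under 3 alternatives: the 3 MAD mitochondrial limit (-0.44, edgeR adjusted p = 0.0237), limits of 1000 to 7000 genes and 10% mitochondrial UMIs (-0.55, edgeR adjusted p = 0.000956) and clustering with all genes (-0.54, edgeR adjusted p = 0.00418).

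Fgf7 in Dpp4+ fibroblasts was 61.5, 61.2 and 59.1 CPM in young and 46.7, 46.0 and 38.1 CPM in aged libraries. The 3 young libraries were close to each other and none overlapped with an aged one. Fgf7 fell by 0.48 ± 0.07 on the log2 scale (edgeR adjusted p = 0.000414), a call held in all 18 alternatives. In the Dmkn and Krtdap cluster taken alone the change was -0.05 ± 0.16 and did not pass (edgeR adjusted p = 0.921), against -0.47 ± 0.07 in the larger Dpp4+ cluster (edgeR adjusted p = 0.000501). The difference between these clusters was not tested. In Icam1+ preadipocytes Fgf7 was 63.0, 57.6 and 56.6 CPM in young and 56.9, 43.2 and 39.6 CPM in aged libraries. The aged TN library lay within the young range, and the log2 fold change was -0.35 ± 0.08 (edgeR adjusted p = 0.0212). Leaving out the aged 14D library moved it to -0.28 (edgeR adjusted p = 0.103), and it also failed without the young 3D, young 14D or aged 3D library, with adjusted p values of 0.0951, 0.107 and 0.0923 in edgeR. It failed too without the temperature term (edgeR adjusted p = 0.241) and with equal cells thinned to 2000 UMIs (-0.21, edgeR adjusted p = 0.308). Cd142+ fibroblasts, the class with the most Fgf7, had 109, 107 and 89.2 CPM in young and 115, 101 and 82.3 CPM in aged libraries, and these overlapped (-0.04 ± 0.09, edgeR adjusted p = 0.821).

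**Figure D4:**
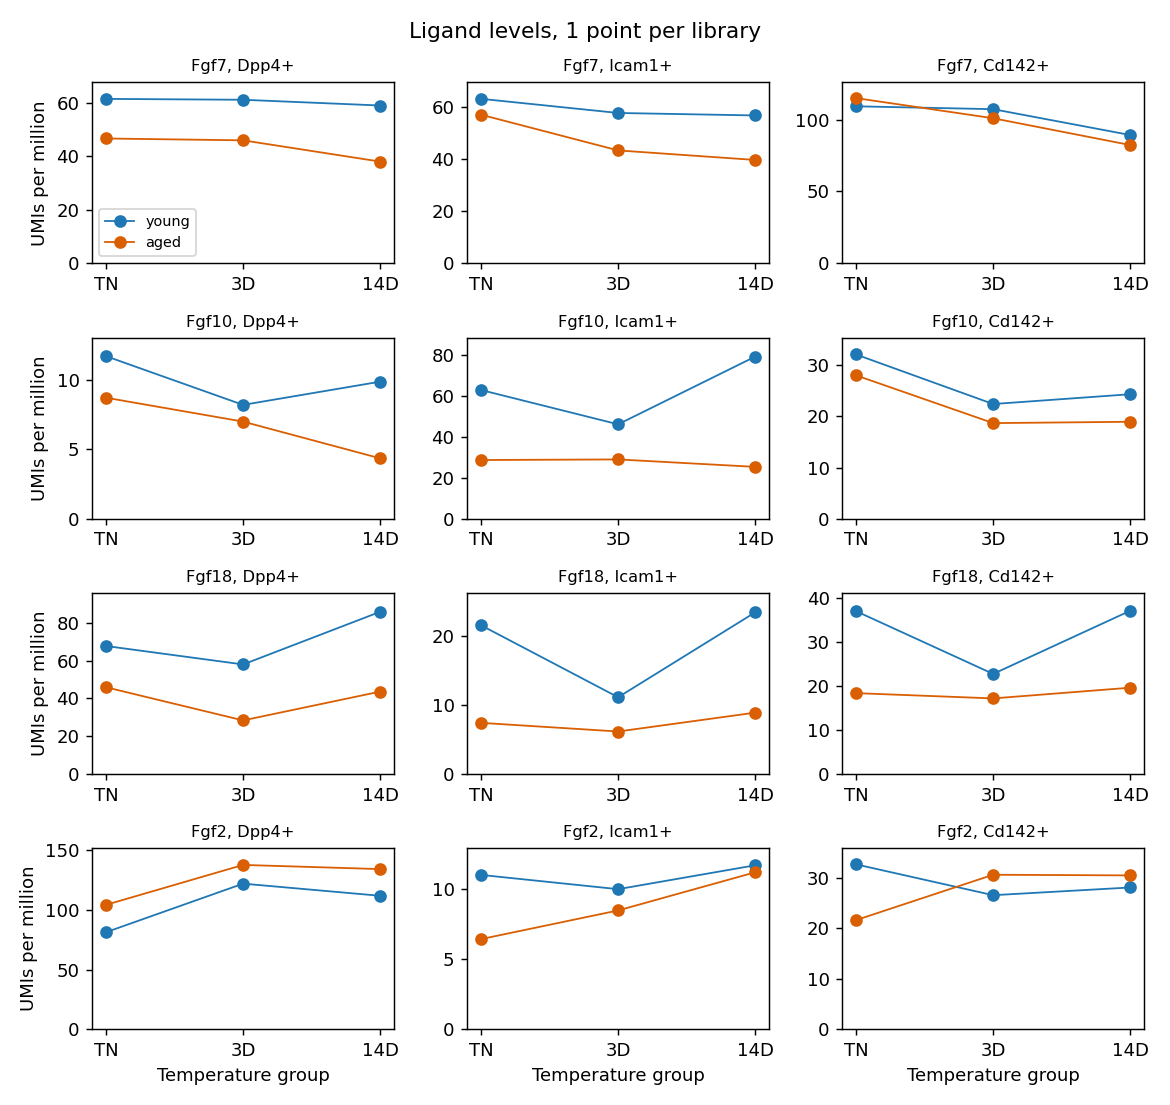
Levels of Fgf7, Fgf10, Fgf18 and Fgf2 (rows) in Dpp4+, Icam1+ and Cd142+ cells (columns), in CPM from 0, at TN, 3D and 14D; each point is 1 library, blue for young and orange for aged, and lines join libraries of the same age. Fgf10 in aged Icam1+ cells stayed between 25.3 and 28.9 while the young libraries ran from 46.0 to 79.0.

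The ligands that fell with age have promoters of unlike base composition. The bases just before the annotated start, from RefSeq on GRCm38.p6, are shown for these 3 genes because each was called lower with age in Dpp4+ and Icam1+ cells. The calls for Fgf10 in Dpp4+ and Fgf7 in Icam1+ cells were lost under several alternatives, as given above. A shared regulation of these genes was not tested. Each window holds 250 bases, read 5′ to 3′ on the strand of the gene, with matches to 4 motifs on either strand in capitals: the GC box (GGGCGG), the CCAAT box (CCAAT), the TATA box (TATAAA) and the AP-1 site (TGANTCA).
Fgf7, chr2:126034408-126034657, plus strand: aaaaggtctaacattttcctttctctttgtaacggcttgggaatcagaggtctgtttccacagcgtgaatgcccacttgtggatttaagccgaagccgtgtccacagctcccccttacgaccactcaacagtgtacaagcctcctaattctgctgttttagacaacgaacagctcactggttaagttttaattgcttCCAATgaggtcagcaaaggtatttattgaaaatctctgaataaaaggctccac
Fgf10, chr13:118714449-118714698, plus strand: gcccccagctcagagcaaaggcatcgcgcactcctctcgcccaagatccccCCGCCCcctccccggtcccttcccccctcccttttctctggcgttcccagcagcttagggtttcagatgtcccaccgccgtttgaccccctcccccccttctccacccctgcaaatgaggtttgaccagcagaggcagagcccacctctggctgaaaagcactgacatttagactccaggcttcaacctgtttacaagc
Fgf18, chr11:33147401-33147650, minus strand: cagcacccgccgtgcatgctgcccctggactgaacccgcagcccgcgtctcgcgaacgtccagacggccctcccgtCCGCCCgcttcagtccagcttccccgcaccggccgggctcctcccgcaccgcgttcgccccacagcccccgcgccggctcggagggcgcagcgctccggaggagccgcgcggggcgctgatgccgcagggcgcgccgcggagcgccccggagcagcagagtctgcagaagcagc
G and C made up 43.6% of the Fgf7 window, 61.2% of the Fgf10 window and 77.2% of the Fgf18 window, against a median of 52.4% over 32536 windows of the same length. The Fgf7 window held 1 CCAAT box, which 33.8% of all windows hold, and the Fgf10 and Fgf18 windows held 1 GC box each, found in 33.0% of windows. None of the 3 held the TATA box or the AP-1 letters, which occur in 12.3% and 6.73% of windows. The RefSeq start of Fgf10 lies within the longer gene span given above from GENCODE. A match of letters is a description and not a binding site.

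Fgfr2 in Icam1+ preadipocytes was 6.24, 3.01 and 5.93 CPM in young and 2.63, 1.85 and 3.04 CPM in aged libraries. The young 3D library fell among the aged ones. Fgfr2 fell with age by 0.99 ± 0.16 on the log2 scale (edgeR adjusted p = 0.00536). The call was lost without the temperature term (edgeR adjusted p = 0.137) and with equal cells thinned to 2000 UMIs (edgeR adjusted p = 0.124). Dpp4+ fibroblasts had 4.66 ± 0.92 CPM in young and 4.38 ± 1.22 CPM in aged libraries (SD, n = 3 each), a difference that did not pass (-0.10 ± 0.13, edgeR adjusted p = 0.633). In Cd142+ fibroblasts the difference of -0.48 ± 0.19 did not pass either (edgeR adjusted p = 0.11).

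Fgfr1 in Cd142+ fibroblasts was 192, 239 and 199 CPM in young and 242, 319 and 282 CPM in aged libraries. Every aged library was above every young one. Fgfr1 rose with age by 0.42 ± 0.08 on the log2 scale (edgeR adjusted p = 0.00237), a call lost under 1 of 18 alternatives, the fit without the temperature term (edgeR adjusted p = 0.0824). Dpp4+ fibroblasts (0.15 ± 0.06, edgeR adjusted p = 0.112) and Icam1+ preadipocytes (0.17 ± 0.07, edgeR adjusted p = 0.162) had small positive differences that did not pass. The Icam1+ difference passed without the young TN library (0.25, edgeR adjusted p = 0.0161) or without the aged TN library (0.26, edgeR adjusted p = 0.0153).

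Fgf2 rose with age in Dpp4+ fibroblasts by 0.26 ± 0.06 on the log2 scale (edgeR adjusted p = 0.0106). The aged library was above the young one at each temperature, while the ages overlapped over the 3 temperatures. Without the young TN or the aged TN library the change was 0.22 and missed the threshold (edgeR adjusted p = 0.0718 and 0.0677), as it did without the temperature term (edgeR adjusted p = 0.41). In Icam1+ preadipocytes the difference was -0.36 ± 0.14 and did not pass (edgeR adjusted p = 0.129).

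**Figure D5:**
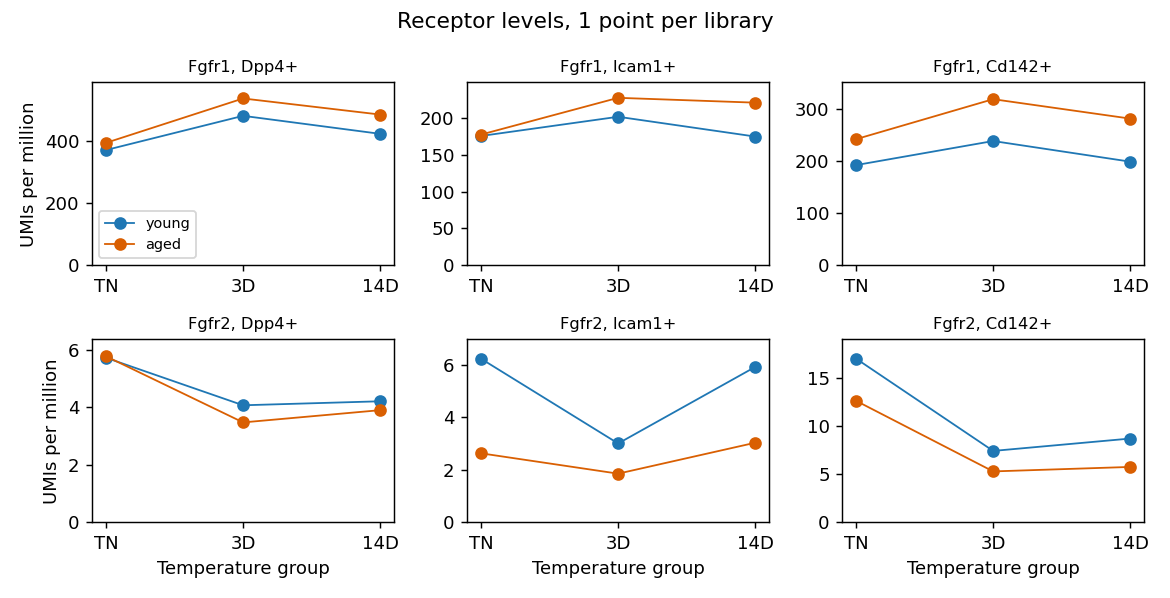
Levels of Fgfr1 and Fgfr2 (rows) in Dpp4+, Icam1+ and Cd142+ cells (columns), in CPM from 0, at TN, 3D and 14D; each point is 1 library, blue for young and orange for aged. Fgfr1 in Cd142+ cells was 192 to 239 in young and 242 to 319 in aged libraries, and Fgfr2 in the same cells was highest at TN for both ages.

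Some other measures moved with age in the same sums, and their part in these results was not tested. The marker lists named next were picked because their ages did not overlap in a class, and the other marker lists overlapped there. Of single genes, 24.4%, 23.3% and 24.0% did not overlap in Dpp4+, Icam1+ and Cd142+ cells. In Dpp4+ fibroblasts the summed level of the 10 Dpp4+ markers was 6588 to 7159 CPM in aged against 7720 to 9335 CPM in young libraries, the 8 adipocyte markers were at 13.8 to 16.2 against 4.03 to 8.19 CPM, and the 6 lymphatic markers at 2.90 to 7.57 against 2.11 to 2.86 CPM. In Icam1+ preadipocytes the 10 immune markers were at 17.4 to 24.8 against 8.56 to 17.2 CPM. In Cd142+ fibroblasts the 10 Icam1+ markers were at 4572 to 6015 against 6581 to 6648 CPM, the 10 endothelial markers at 71.3 to 99.2 against 54.2 to 62.9 CPM, and the lymphatic markers at 3.45 to 5.08 against 1.07 to 2.63 CPM. No marker named in these comparisons was at 0 in every library, although the lymphatic sums were low, at 7.57 CPM or less. Of the 10 genes known to respond to tissue dissociation, 2 rose and 1 fell with age in Dpp4+ fibroblasts, and 1 rose in each of the other fibroblast classes. With cold, 4 of these genes changed in Dpp4+ fibroblasts and 0 in the other classes by edgeR. Over all genes tested, 18.6%, 13.8% and 12.6% were called for age in Dpp4+, Icam1+ and Cd142+ cells, and 8.85%, 5.03% and 3.00% for temperature. The make-up of the classes by finer cluster also moved with age, and its part in these results was not tested. At resolution 1.0 the Icam1+ cluster led by Fmod, Lamc3 and Hhip held 124, 170 and 141 cells in the young TN, 3D and 14D libraries and 1888, 381 and 150 in the aged ones, and the one led by Lypd1 and Cox8b held 1505, 2011 and 1846 against 373, 1871 and 860. Within each of the 3 largest Icam1+ clusters of that resolution, aged and young libraries overlapped for neither Fgf10 nor Fgf18. A smaller cluster of 711 cells with the same name was not included. The share of all genes without overlap within single clusters of that resolution is not given here. These clusters are largely parts of the classes in which the lack of overlap was first seen. Fgf10 was 58.2, 44.0 and 57.1 CPM in young and 28.8, 25.4 and 29.2 CPM in aged libraries of the Fmod cluster, and 65.5, 48.3 and 93.1 against 33.2, 28.0 and 24.9 CPM in the Lypd1 cluster. Of the Dpp4+ clusters, the one led by Stmn4 and Slc6a12 held 1309, 1387 and 1855 young and 289, 1274 and 423 aged cells, and the one led by Mrgprg and Lypd5 held 35, 122 and 11 against 969, 214 and 4. In the Stmn4 cluster Fgf18 was 64.1, 60.7 and 83.7 CPM in young and 42.1, 28.0 and 46.3 CPM in aged libraries, without overlap, and Fgf7 was 49.9, 48.1 and 43.8 against 36.5, 42.3 and 29.6 CPM. The cluster led by Cxcl13 and Nrcam, most of its cells Dpp4+ fibroblasts, held 843, 937 and 1348 young and 139, 646 and 167 aged cells. There the ages overlapped for Fgf7, at 83.2, 97.9 and 83.6 CPM in young and 93.1, 69.3 and 47.7 CPM in aged libraries. They also overlapped for Fgf7 in the clusters led by Dmkn and by Slc6a13, but not in the one led by Ptgs2 and Myoc. The unnamed cells of all libraries held 7.81 to 9.56% of the UMIs of Fgf2, Fgf7, Fgf10, Fgf18, Fgfr1 and Fgfr2. In the aged 14D library alone they held 147 of 658 Fgf10 UMIs, 392 of 1966 Fgf7 UMIs and 249 of 1320 Fgf18 UMIs. In the young TN library these were 225 of 2655, 333 of 5040 and 247 of 3630, with totals over all barcodes.

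Without the aged 14D library, the age calls other than those of Fgf10 in Dpp4+ and Fgf7 in Icam1+ cells, named above, stood. Fgf18 was then at -0.79, -1.22 and -0.73 on the log2 scale in Dpp4+, Icam1+ and Cd142+ cells, Fgf10 in Icam1+ cells at -0.90 and Fgf7 in Dpp4+ cells at -0.40. Fgfr2 in Icam1+ cells was at -1.01 (edgeR adjusted p = 0.0255), Fgfr1 in Cd142+ cells at 0.37 (edgeR adjusted p = 0.0131) and Fgf2 in Dpp4+ cells at 0.27 (edgeR adjusted p = 0.0351). For temperature, the fits without that library still called Fgf2, Fgf18 and Fgfr1 in Dpp4+ cells and Fgfr2 in Cd142+ cells (edgeR adjusted p = 0.0034, 0.00865, 0.00725 and 9.7e-06).

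Whether the age effects differ between the fibroblast classes was tested with an age by class term in the 12 sums of 2 classes. The age change of Fgf7 was less negative in Cd142+ than in Dpp4+ fibroblasts by 0.44 ± 0.09 on the log2 scale (edgeR adjusted p = 0.016), 1 of 8 members called in that pair, where 1.76% of genes were called. For Fgf10 the change in Cd142+ fibroblasts was less negative than in Icam1+ preadipocytes by 0.90 ± 0.20 (edgeR adjusted p = 0.0369), again 1 of 8 members, beside 1.88% of genes. Fgf18, with its fall in all 3 classes, was not called for a difference in any pair, and the largest estimate was 0.52 ± 0.15 between Cd142+ and Icam1+ cells (edgeR adjusted p = 0.122). Between Icam1+ and Dpp4+ cells 0 of 8 members passed in edgeR, beside 2.15% of genes, with 4 at an unadjusted p under 0.05. For Fgf2 and Fgfr2 in that pair the differences were -0.62 ± 0.18 and -0.92 ± 0.28 (edgeR adjusted p = 0.133 and 0.152). The Fgf7 difference missed the threshold without the young 14D, aged TN, aged 3D or aged 14D library, at 0.37 to 0.45 with an edgeR adjusted p of 0.0502 to 0.107. The Fgf10 difference missed it without the young 14D, aged TN or aged 14D library, at 0.66 to 0.92 with an edgeR adjusted p of 0.0744 to 0.168.

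Cold exposure was then compared in the same fits, with the 3D and 14D libraries tested jointly against TN. In Dpp4+ fibroblasts Fgf2, Fgf18 and Fgfr1 changed, 3 of 8 members beside 8.85% of all genes tested. In Icam1+ preadipocytes Fgf18 changed, 1 of 8 members beside 5.03% of genes, and in Cd142+ fibroblasts Fgfr2 changed, 1 of 7 members beside 3.00% of genes. In endothelial cells 1.73% and in SMC/pericytes 0.372% of genes were called, with 0 of 3 and 0 of 6 members by edgeR and by DESeq2. At an unadjusted p under 0.05 those counts were 1 and 2 in edgeR and 0 and 1 in DESeq2.

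Fgf2 in Dpp4+ fibroblasts was higher by 0.50 at 3D and 0.41 at 14D than at TN on the log2 scale (edgeR adjusted p = 0.00421). All 4 cold libraries were above the TN library of the same age, at 122 and 112 CPM against 81.3 CPM in young and at 138 and 134 CPM against 104 CPM in aged mice. The call was lost without the young TN library (edgeR adjusted p = 0.0637) and without the age term (edgeR adjusted p = 0.616). Without the age term, 0 of 13311 genes in Dpp4+, 0 of 13310 in Icam1+ and 1 of 11346 in Cd142+ cells were called. A call lost in that fit is therefore not particular to the gene. Fgfr1 in Dpp4+ fibroblasts was 370, 480 and 422 CPM in young and 393, 536 and 484 CPM in aged libraries at TN, 3D and 14D. Both cold time points were above TN at both ages, by 0.41 at 3D and 0.24 at 14D on the log2 scale (edgeR adjusted p = 0.0147). That call failed without the young TN, young 3D, aged TN or aged 3D library, with an edgeR adjusted p of 0.0628, 0.12, 0.112 and 0.104, and without the age term (edgeR adjusted p = 0.608).

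Fgf18 was lower at 3D than at TN in Dpp4+ fibroblasts and Icam1+ preadipocytes. The changes in Dpp4+ fibroblasts were -0.44 at 3D and 0.15 at 14D (edgeR adjusted p = 0.0127), and those in Icam1+ preadipocytes were -0.65 and 0.19 (edgeR adjusted p = 0.0446). In both classes the 3D library was the lowest of its age, at 58.0 and 28.4 CPM in young and aged Dpp4+ fibroblasts and at 11.1 and 6.16 CPM in Icam1+ preadipocytes. The Dpp4+ call was lost without the young 3D library (edgeR adjusted p = 0.0607) or the aged 3D library (edgeR adjusted p = 0.167), under the 3 MAD mitochondrial limit (edgeR adjusted p = 0.0503) and without the age term (edgeR adjusted p = 0.841). The Icam1+ call was lost without the young 3D library (edgeR adjusted p = 0.407), the young 14D library (edgeR adjusted p = 0.097) or the aged 14D library (edgeR adjusted p = 0.0673), and under the 3 MAD limit (edgeR adjusted p = 0.103). It was also lost at resolution 0.3 (edgeR adjusted p = 0.0533), with direct gating (edgeR adjusted p = 0.0691) and without the age term (edgeR adjusted p = 0.806). In Cd142+ fibroblasts the 3D change of -0.46 did not pass (edgeR adjusted p = 0.154), although it passed with no filter on low counts and without the aged 3D or aged 14D library (edgeR adjusted p = 0.0487, 0.0155 and 0.025).

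Fgfr2 in Cd142+ fibroblasts was 17.0, 7.42 and 8.71 CPM at TN, 3D and 14D in young and 12.6, 5.29 and 5.75 CPM in aged libraries. Both TN libraries were above all 4 cold ones. Fgfr2 fell by 1.22 at 3D and by 1.02 at 14D on the log2 scale (edgeR adjusted p = 0.00439). The call was lost without the young TN library (edgeR adjusted p = 0.062), with equal cells thinned to 2000 UMIs (edgeR adjusted p = 0.0727), with cells gated directly on markers (edgeR adjusted p = 0.405) and without the age term (edgeR adjusted p = 0.988). DESeq2 called 0 of 7 members in this class, with 2 at an unadjusted p under 0.05. Fgfr2 in Dpp4+ fibroblasts had differences of -0.60 and -0.49 and fell just short (edgeR adjusted p = 0.0504). Fgf10 in Cd142+ fibroblasts had -0.55 and -0.46 and did not pass (edgeR adjusted p = 0.0577), although it passed under 4 alternatives (edgeR adjusted p = 0.0143 to 0.0405).

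In SMC/pericytes the aged 14D library had 31.3 CPM of Fgf2, against 10.3 to 18.8 CPM in the other 5 libraries. The test of temperature there gave differences of -0.12 at 3D and 0.86 at 14D and did not pass (edgeR adjusted p = 0.317). It passed without the young TN, young 14D or aged TN library (edgeR adjusted p = 8.85e-05, 0.0398 and 0.00203), fits that all keep the aged 14D library, and with no filter on low counts (edgeR adjusted p = 0.000173). Without the aged 14D library the differences were -0.14 and 0.34 (edgeR adjusted p = 0.681). Fgf1 in the same cells was at its lowest at 14D for both ages, at 115 and 103 CPM, with a difference of -0.24 from TN (edgeR adjusted p = 0.489). Fgfr3 in endothelial cells was at its highest at 3D in young and at TN in aged mice, and its differences of 0.34 at 3D and -0.36 at 14D did not pass (edgeR adjusted p = 0.545).

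Beside the members, other genes of the pathway were counted from lists of ligands, cofactors, transducers and targets. Of 13 other secreted ligands, 2 were tested in Dpp4+ fibroblasts and 1 in each of Icam1+, Cd142+ and endothelial cells. Fgf9 fell with age in Dpp4+ fibroblasts (-0.78 ± 0.24, edgeR adjusted p = 0.0435) and in Cd142+ fibroblasts (-1.46 ± 0.27, edgeR adjusted p = 0.00136), where it was 5.97 to 9.23 CPM in young and 2.07 to 4.06 CPM in aged libraries. Fgf21, better known as a hormone of liver, fell in Icam1+ preadipocytes (-1.14 ± 0.30, edgeR adjusted p = 0.0386) at levels of 0.48 to 1.97 CPM. None of the 4 intracellular homologs passed for age in any class by edgeR, where 1 to 3 of them were tested per class.

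For the pathway lists, the shares of all genes called for age given above (18.6% in Dpp4+, 13.8% in Icam1+ and 12.6% in Cd142+ cells) are the background, and counts of 1 to 5 genes per list are given as descriptions. Of 8 coreceptors, carriers and decoy receptors, 4 were tested in Dpp4+ fibroblasts, with 2 higher and 1 lower in aged cells. Flrt3, a membrane protein that binds FGF receptors, fell by 0.68 ± 0.09 (edgeR adjusted p = 0.000318). Fgfrl1, a receptor without the kinase domain, rose in Dpp4+ fibroblasts (0.37 ± 0.10, edgeR adjusted p = 0.0262) and fell in Icam1+ preadipocytes (-0.35 ± 0.08, edgeR adjusted p = 0.0258). Heparan sulfate genes had 10 of 11 tested in each class, of which 2 fell in Dpp4+ fibroblasts, 3 fell and 1 rose in Icam1+ preadipocytes and 0 passed in the other 3 classes by edgeR. Sulf1, which trims 6-O-sulfates from heparan sulfate, fell in both Dpp4+ fibroblasts (-0.22 ± 0.06, edgeR adjusted p = 0.0216) and Icam1+ preadipocytes (-0.45 ± 0.06, edgeR adjusted p = 0.00306). Its relative Sulf2 rose with cold in endothelial cells, by 1.72 at 3D and 2.21 at 14D (edgeR adjusted p = 0.0289). It stood at 2.07 and 2.06 CPM in the TN libraries and at 5.54 to 11.5 CPM in the cold ones.

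Of the 16 transducers, 2 rose with age in Dpp4+ fibroblasts, among them the ERK kinase Mapk3 (0.28 ± 0.06, edgeR adjusted p = 0.00941), and Braf rose in Cd142+ fibroblasts (0.32 ± 0.10, edgeR adjusted p = 0.0487). Of the 14 feedback inhibitors and targets, 12 were tested in Dpp4+ fibroblasts, where 3 rose and 2 fell. There the feedback inhibitor Spry1 fell (-0.70 ± 0.10, edgeR adjusted p = 0.000631), as did the ERK phosphatase Dusp6 (-0.55 ± 0.12, edgeR adjusted p = 0.00881), while the transcription factors Etv1 (1.59 ± 0.31, edgeR adjusted p = 0.00429) and Etv5 (0.91 ± 0.17, edgeR adjusted p = 0.00291) rose. Both factors were at low levels in these cells. Etv1 had 0.28 to 0.59 CPM in young and 1.02 to 1.81 CPM in aged libraries, and Etv5 1.8 to 2.0 against 3.1 to 3.8 CPM. Etv1 rose in all 3 fibroblast classes, by 0.49 ± 0.09 in Icam1+ preadipocytes (edgeR adjusted p = 0.00903) and by 0.90 ± 0.21 in Cd142+ fibroblasts (edgeR adjusted p = 0.00768). Spry4 fell in Cd142+ fibroblasts (-0.80 ± 0.19, edgeR adjusted p = 0.00925), and Dusp6 fell in endothelial cells, from 117 to 130 CPM in young to 87.3 to 92.8 CPM in aged libraries (-0.46 ± 0.09, edgeR adjusted p = 0.029).

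With cold, 3 of 13 feedback genes tested were called in Icam1+ preadipocytes and 1 of 12 in Dpp4+ fibroblasts. Over all genes tested, 5.03% and 8.85% were called in these classes. Spry1 changed in both and had log2 differences from TN of -0.52 at 3D and -0.89 at 14D in Icam1+ preadipocytes (edgeR adjusted p = 0.0271). Dusp6 fell in Icam1+ preadipocytes by 0.78 at 3D and by 0.67 at 14D (edgeR adjusted p = 0.0225), with 21.9 and 32.9 CPM at TN in young and aged mice and 15.5 to 17.4 CPM in the 4 cold libraries. Dusp5 rose there by 0.63 at 3D and was 0.13 above TN at 14D (edgeR adjusted p = 0.0066). The median log2 fold change with age of the tested feedback genes was 0.10 in Dpp4+ fibroblasts and 0.20 in Icam1+ preadipocytes, against -0.002 and -0.005 over all genes. It was 0.11 in Cd142+ fibroblasts, 0.08 in SMC/pericytes and -0.10 in endothelial cells, against -0.003, 0.004 and 0.002.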

How the data were processed

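Per the labels and the study's methods, the authors sequenced 3′ libraries of the 10x Genomics kind and made the deposited count matrices with Cell Ranger 3.1.0 on mm10. Values are UMI counts per gene and barcode, before the authors' later filtering in R 4.1.1. Whether overlapping genes were separated by strand is not given in the sources used here.

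From the deposited counts, barcodes with over 200 genes were kept if log10 UMIs and log10 genes lay within 3 MAD of the library median and mitochondrial UMIs were at most 20%. The 20% limit replaced one of 3 MAD after it was seen that the latter removed most SMC/pericytes. Cells were clustered in Python 3.11.15 (6000 variable genes, 15 components, leidenalg 0.10.2, resolution 0.5), leaving out 181 member, marker and pathway genes. Clusters were named by marker lists. A cluster with more leading genes of another list than of its own stayed unnamed, a rule added after seeing the clusters. Clusters with over 50% of cells of high doublet score stayed unnamed, and other such cells were kept. Members and lists were chosen with earlier results of these data known.

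UMIs were summed per class and library, scaled by TMM, filtered with filterByExpr and tested with edgeR 4.0.16 (R 4.3.3, quasi-likelihood F-test, Benjamini-Hochberg adjustment over all genes, threshold 0.05), with age and temperature as terms. The age by class fits had the library as a block. DESeq2 1.42.0, RLE factors and other filters, clusterings, cell limits and left-out libraries were alternatives, 18 per class. CPM of the 5 tested classes used the TMM-scaled totals of tested genes, and those of clusters and smaller classes used all UMIs. The fits were tested on simulated counts. Pathway genes were named if they passed a test, largest change first, at most 4 per list and comparison. Similar genes were the 3 with the highest correlation among genes with at least 20 CPM in a class. Shares of cells used cells thinned to 2000 UMIs, and shallower cells were left out.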

Additional observations from a re-analysis of the deposited data

Results flagged for a closer look

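The age effect on Fgf7 differed between Cd142+ and Dpp4+ fibroblasts by 0.443 on the log2 scale (age by class term, edgeR adjusted p = 0.016). The age effect on Fgf10 differed between Cd142+ fibroblasts and Icam1+ preadipocytes by 0.895 (edgeR adjusted p = 0.0369). Both are listed because the difference between classes itself passed its test, and both missed the threshold when certain single libraries were left out.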

How the results depend on the processing

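Of 549 comparisons of a member's age effect in a class with an alternative, 490 kept their direction and their side of the threshold, 19 lost the call, 6 gained one and 34 changed sign, all of these for members not called in either fit. With cells gated directly on markers the changed values were 0.35 for Fgf1 in Icam1+ cells, 0.236 for Fgfr3 in Dpp4+ cells, 0.126, 0.006 and 0.595 for Fgf2, Fgf7 and Fgfr2 in Cd142+ cells, 0.125 and 0.036 for Fgf2 and Fgfr1 in endothelial cells and 0.089 for Fgf7 in SMC/pericytes. With 1000 to 7000 genes and 10% mitochondrial UMIs they were 0.25 and 0.178 for Fgf2 and Fgfr1 in endothelial cells and -0.097 for Fgf2 in SMC/pericytes, and at resolution 0.3 they were 0.171, 0.059 and -0.018 for the same genes and class names. The cells differed, however. The endothelial class held a cluster of 2225 cells, 1262 of them from the aged 14D library, under those limits. At resolution 0.3 it held one of 5806 cells, 4686 of them from that library, and a cluster with Rgs5 and Kcnj8 among its leading genes was unnamed. Fgf2 in SMC/pericytes, at 0.02, was also at -0.018 with all genes in the clustering, -0.227 with the 3 MAD limit, -0.001 with DESeq2 and just under 0 with no filter on low counts. Fgf1 was at -0.094 in Dpp4+ cells at resolution 1.0 and at 0.081 in Cd142+ cells with the 3 MAD limit, Fgfr3 in Dpp4+ cells at 0.084 with DESeq2, and, with high doublet scores left out, Fgf2 in Cd142+ cells at 0.01 and Fgf18 in SMC/pericytes at 0.202. Leaving out single libraries gave -0.42 to 0.621 for Fgfr3 in Dpp4+ cells, -0.256 to 0.161 for Fgf2 in Cd142+ cells, -0.371 to 0.054 and -0.182 to 0.467 for Fgfr1 and Fgfr3 in endothelial cells, and -0.378 to 0.263 and -0.239 to 0.038 for Fgf2 and Fgfr1 in SMC/pericytes. Counts of members called for age went from 4 to 2 in Dpp4+ fibroblasts and from 4 to 1 in Icam1+ preadipocytes without the temperature term, and to 2 in Icam1+ preadipocytes with equal cells at 2000 UMIs. In Cd142+ fibroblasts the count went from 2 to 1 without that term, with equal cells and with cells gated directly on markers, a gate that took in 37.2% of the class. Leaving out single libraries gave counts for temperature of 1 to 4 in Dpp4+, 0 to 5 in Icam1+, 0 to 3 in Cd142+ and 0 to 1 in SMC/pericyte sums, against 3, 1, 1 and 0, and counts of 0 to 1 for the age by class differences of Cd142+ fibroblasts from Dpp4+ and from Icam1+ cells. With no filter on low counts the temperature counts were 5, 3, 3 and 1 in the same order, and without the age term they were 0 in all 3 fibroblast classes. The fits without the age term called 0, 0 and 1 of all genes tested in Dpp4+, Icam1+ and Cd142+ cells. In Icam1+ preadipocytes the temperature count was 2 with high doublet scores left out, at resolution 1.0 and with all genes in the clustering, and 0 at resolution 0.3, with direct gating and with the 3 MAD mitochondrial limit. In Cd142+ fibroblasts it was 0 with DESeq2, equal cells and direct gating and 2 with the 3 MAD limit. In SMC/pericytes it was 1 with 1000 to 7000 genes and at most 10% mitochondrial UMIs. The cause of these changes was not tested. The 3 MAD limit, the fits on single clusters and the levels by cluster at resolution 1.0 were chosen after seeing the data. Groups could not be paired by animal, and each held 1 library. Only the age by class fits were paired, with classes compared within a library. With 1 library per age and temperature, an interaction of the 2 could not be tested. Low counts limit Fgfr4, Fgfr3 outside endothelial cells and Fgfr2, and among the pathway genes Etv1 and Etv5 in Dpp4+ cells.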
